A study of Homo sapiens with 22 samples.

Results

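TGF-beta receptors, SMADs and targets in Ewing sarcoma cells are described here through 8 genes, of 20033 protein-coding genes in the annotation: the ligands TGFB1 and TGFB2, the receptors TGFBR1, TGFBR2 and TGFBR3, the intracellular proteins SMAD3 and SMAD7, and the target gene TGFBI. The genes were taken by symbol, and every listed peak over the gene body and 50 kb to each side was read from 14 peak lists. The cells were TC-32, an established Ewing sarcoma line, reverse transfected with 20 nM of the control siRNA siNeg (the siNEG arm) or of an siRNA against FLI1 (the siFLI1 arm). The series used siFLI1 to deplete EWSR1::FLI1, the fusion of EWSR1 with the ETS-family factor FLI1 that drives this tumour. No file analysed here gives RNA or protein levels, the labels give no time after transfection, and all results come from 1 cell line. Chromatin immunoprecipitation sequencing was run with 2 replicates per arm for the ETS-family factor ETS1, for H3K27ac (a histone acetylation of active promoters and enhancers) and for H3K4me3 (a histone methylation of promoters). A further H3K27ac library per arm carried the antibody label ab4729 and was kept apart.

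TGF-beta ligands bind TGFBR2, which phosphorylates TGFBR1, and TGFBR1 in turn phosphorylates SMAD2 and SMAD3, which enter the nucleus with SMAD4 and bind DNA at short CAGACA-like elements. TGFBR3 (betaglycan) is a co-receptor that presents ligand, above all TGFB2. SMAD7 is an inhibitory SMAD that the pathway itself induces, and TGFBI encodes an extracellular matrix protein named for its induction by TGF-beta. TGFBR2 is known from earlier work on Ewing sarcoma as a gene that EWSR1::FLI1 holds down.

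The measure per gene was covered length, the number of bases of the window (gene body and 50 kb to each side) that lay under listed peaks. It describes what was called in a library, not how much protein was bound, and the read depth behind the lists is unknown. The H3K27ac lists held 60027 and 60401 peaks in siNEG and 65501 and 61481 in siFLI1, and the H3K4me3 lists held 18344 to 19720 peaks. Differences were tested with limma on log2(covered length + 1000 bp) over all windows, with Benjamini-Hochberg adjustment and a call at an adjusted p below 0.05, and every fold given for a window is on that scale. The labels do not say whether replicates came from separate cultures, so the p-values measure only the spread between these libraries. Over all 15724 windows tested for H3K27ac the median difference was 0.22 on the log2 scale, with 3942 windows called higher in siFLI1 and 967 lower. Without siFLI1 replicate 1 these counts were 540 and 287. After centring each list on its median window the split was 1978 higher and 2131 lower. For H3K4me3 the median over 16059 windows was -0.10, with 740 called higher and 3418 lower, 142 and 115 without siFLI1 replicate 1, or 1260 and 1436 after centring. All 7 Ewing sarcoma markers examined (CD99, NKX2-2, NR0B1, PRKCB, STEAP1, BCL11B and CCND1) had H3K4me3 and H3K27ac at a transcription start site (TSS) in both siNEG lists, and all 7 also had both marks in both siFLI1 lists. Of 7 markers of other cell types, 0 had H3K4me3 there in both siNEG lists and 2 had H3K27ac (EPCAM and PECAM1).

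H3K27ac covered more of the windows of TGFB2, TGFBI, SMAD3, TGFBR3 and TGFB1 in siFLI1 cells, and TGFB2 and TGFBI also carried more H3K4me3. The receptors that bind and pass on the signal, TGFBR1 and TGFBR2, were not called for either mark. For H3K27ac, 5 of the 8 genes were called higher and 0 lower, against 25.1% of all windows called higher and 6.15% called lower. After centring, 3 were called higher (TGFB2, SMAD3 and TGFBI) and 1 lower (TGFBR1), and leaving out any 1 list gave 3 higher and 0 lower. The median difference was 0.34 for the 8 genes and 0.22 for all windows. In 6 genes both siFLI1 lists lay above both siNEG lists, as in 51.7% of all windows, in TGFBR1 both lay below, as in 15.8% of all windows, and in TGFBR2 the arms overlapped. TGFB2, SMAD3 and TGFBI kept their H3K27ac calls in each of the 11 alternative settings run.

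**Figure D1:**
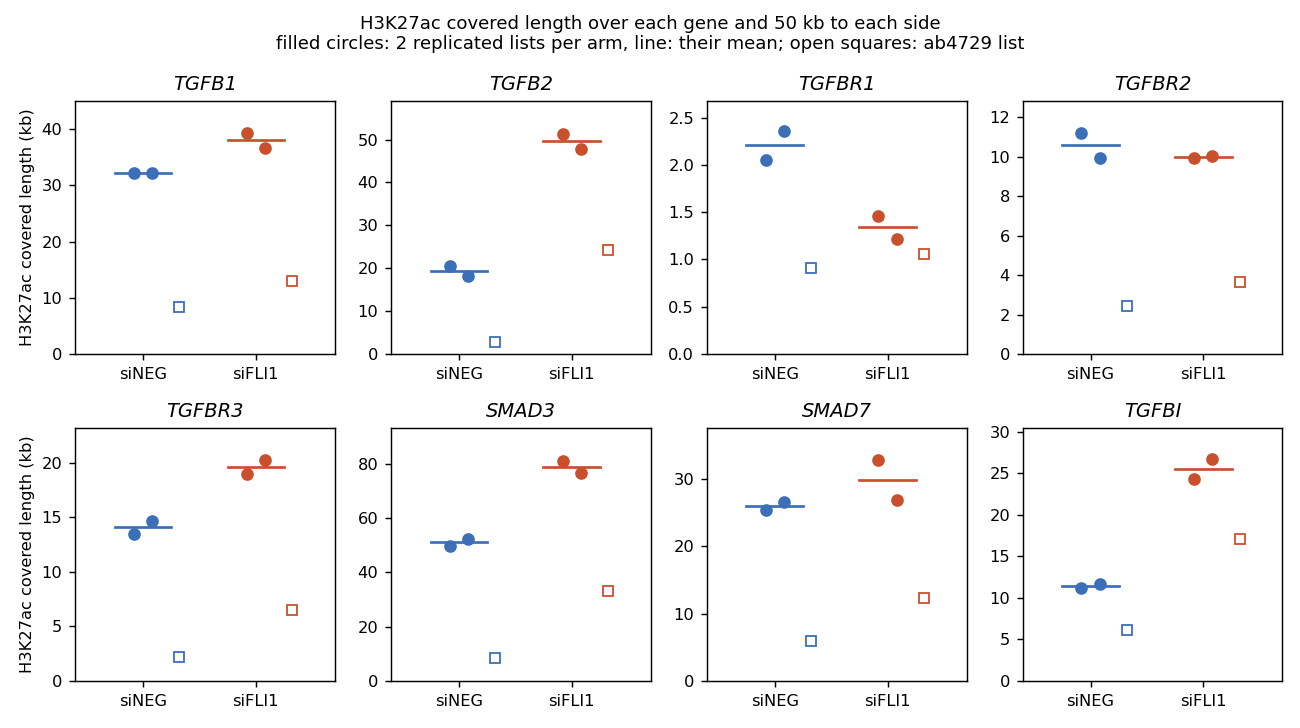
H3K27ac covered length in kb (vertical axis) over each gene and 50 kb to each side, by arm (horizontal axis). Filled circles are the 2 replicated lists of an arm, the line is their mean and the open square is the ab4729 list. The siFLI1 circles stand clear of the siNEG circles in TGFB2, SMAD3 and TGFBI, overlap them in TGFBR2 and lie below them in TGFBR1.

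**Figure D2:**
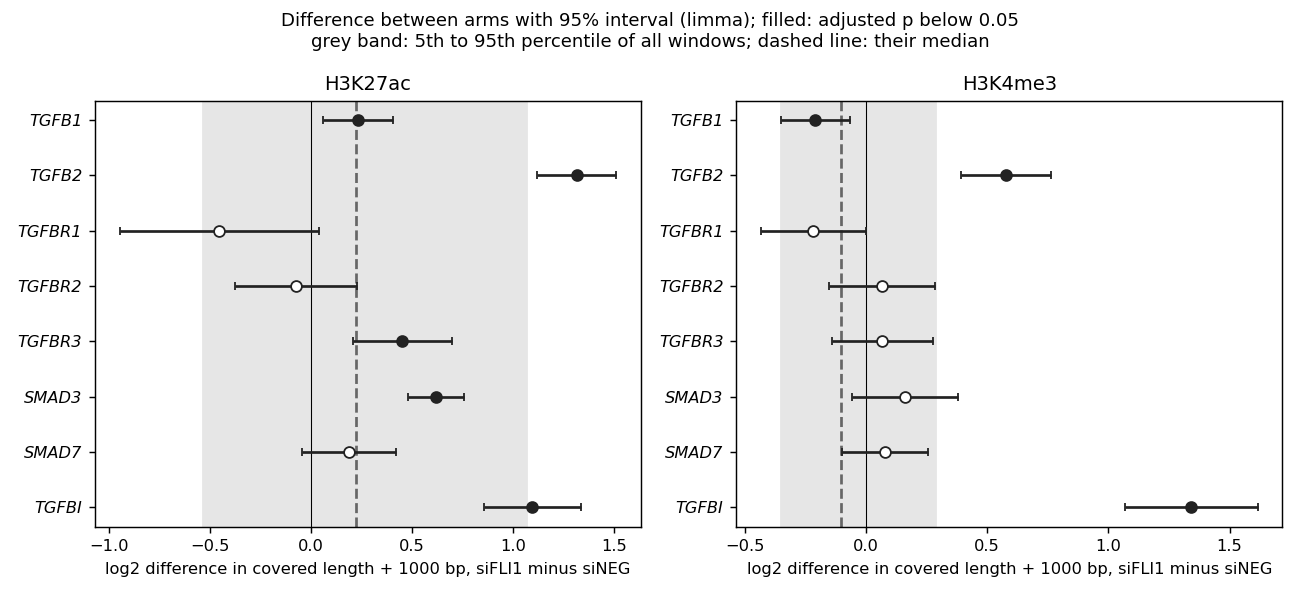
Difference in log2(covered length + 1000 bp), siFLI1 minus siNEG (horizontal axis), for the 8 genes in H3K27ac (left) and H3K4me3 (right), with 95% intervals from limma. Filled points have an adjusted p below 0.05, the dashed line is the median of all windows and the grey band holds their 5th to 95th percentile. TGFB2 and TGFBI lie beyond the band in both panels.

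Among the ligands, TGFB2 (ENSG00000092969.12, chr1:218345336-218444619, plus strand, hg38) showed the largest difference in H3K27ac of the 8 genes. Its window held 20.5 and 18.2 kb of H3K27ac in siNEG and 51.2 and 47.9 kb in siFLI1. The arms did not overlap, with means of 19.4 ± 1.58 kb and 49.5 ± 2.39 kb (SD, n = 2 each). The difference was 1.31 on the log2 scale (SE 0.09, limma adjusted p = 3.9e-05), a fold of 2.49 and percentile 97.6 of all windows. Without a replicate the difference ranged from 1.23 to 1.39.

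Most of that length came from regions that were in all 4 lists and were wider in siFLI1. Of 28 merged H3K27ac regions in the TGFB2 window, 7 were in all 4 lists, and these held 18.8 and 18.2 kb in siNEG and 38.3 and 36.8 kb in siFLI1. The region over the gene start, chr1:218345313-218352058, was covered over 1003 and 1179 bp in siNEG and 6417 and 6192 bp in siFLI1. In siNEG its peaks stopped short of the start itself. Within 1 kb of the canonical TSS, H3K27ac covered 0 bp in both siNEG lists and 1024 bp in each siFLI1 list. H3K27ac was gained in this sense (in both siFLI1 lists and neither siNEG list) at the canonical TSS of TGFB2 and TGFBI among the 8 genes, against 1.72% of 20033 canonical TSSs. In the ab4729 lists the TGFB2 TSS had 0 bp in siNEG and 861 bp in siFLI1, but the TGFBI TSS had 238 bp in siNEG and 185 bp in siFLI1, so the mark was also listed there in control cells. The intronic region chr1:218373524-218384565, named here after its values were seen, covered 7368 and 6684 bp in siNEG and 10140 and 10727 bp in siFLI1.

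Over the 8 windows together, 214 merged H3K27ac regions were found, and 23 of them (10.7%) were gained, against 8.19% of all 90572 regions. Only 2 (0.93%) were lost (in both siNEG lists and neither siFLI1 list), against 4.86%. The counts rest on all 4 lists: with siFLI1 replicate 1 or 2 left out 63 or 70 regions were gained, and with siNEG replicate 1 or 2 left out 26 or 14 were lost. Single regions were not tested here. Of the gained regions 17 lay in introns, 5 downstream of the gene and 1 upstream, and they were 342 to 2440 bp wide with a median of 696 bp.

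The TGFB2 window held 5 gained regions, 4 in introns between 8.86 and 23.4 kb from the gene start and 1 downstream of the gene. The intronic region chr1:218364120-218366091 had an authors' fold over background of 4.70 in siFLI1 replicate 1 and 5.80 in replicate 2. The downstream region chr1:218479178-218481179 had folds of 5.46 and 5.50, and it also lay under 1061 bp of peaks in the ab4729 siFLI1 list and under none in ab4729 siNEG. The other 3 had folds from 3.39 to 5.23. The 300 bp at the summit of the intronic region, chr1:218365722-218366021 (plus strand, hg38 reference), are shown because this is the widest gained region inside the gene, and the capitals mark GGAATG, the core bound by TEAD factors, here on the reverse strand.
TGFB2 gained intronic region: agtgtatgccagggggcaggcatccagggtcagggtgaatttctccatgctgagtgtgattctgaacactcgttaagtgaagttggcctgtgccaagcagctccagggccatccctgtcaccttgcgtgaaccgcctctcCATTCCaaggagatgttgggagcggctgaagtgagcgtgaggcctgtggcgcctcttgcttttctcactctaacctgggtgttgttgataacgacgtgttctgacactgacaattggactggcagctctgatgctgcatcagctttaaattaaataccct

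H3K4me3 at TGFB2 widened in siFLI1 from the gene start into the gene. The window held 4.37 and 4.44 kb in siNEG and 6.90 and 7.23 kb in siFLI1, with no overlap between the arms. The difference was 0.58 on the log2 scale (SE 0.09, limma adjusted p = 3.1e-04), percentile 98.5 of all windows, where 4.61% were called higher and 21.3% lower. The call was lost without siFLI1 replicate 1 (0.61, adjusted p = 0.052). The peak region chr1:218344844-218351810 was in all 4 lists, with authors' folds of 22.9 and 25.6 in siNEG and 24.95 and 31.8 in siFLI1.

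**Figure D3:**
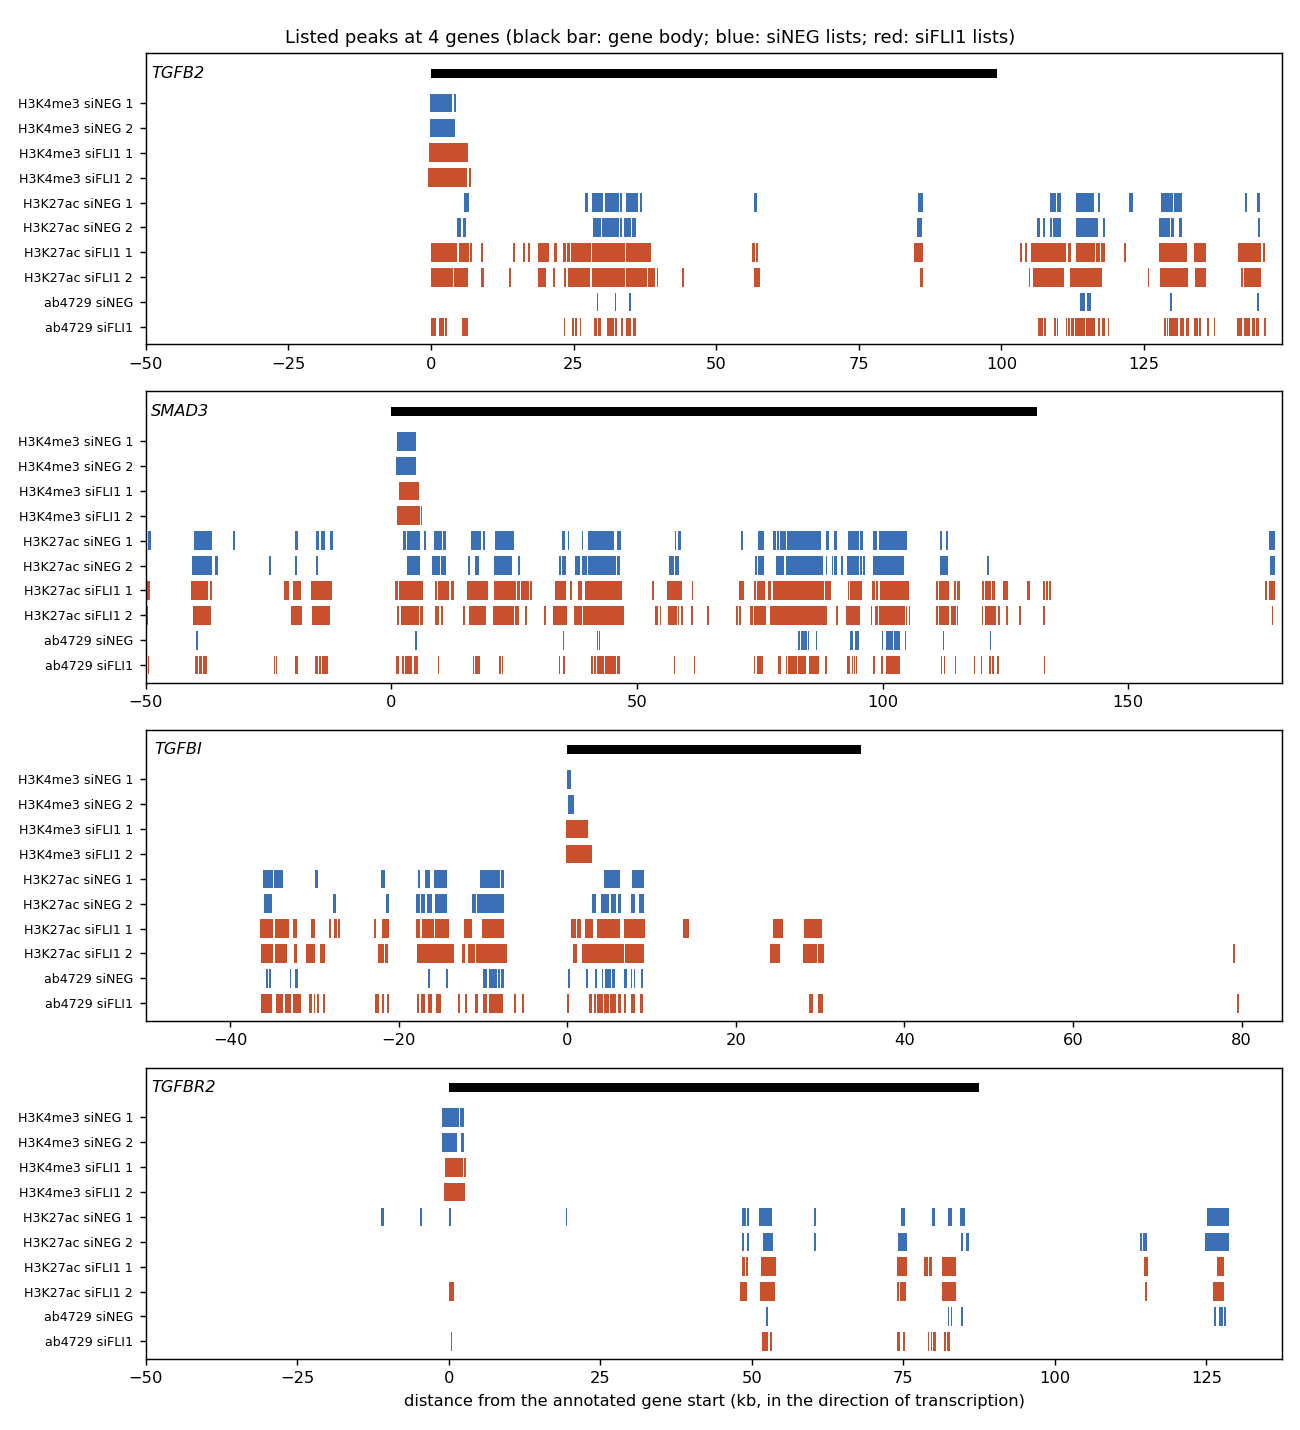
Listed peaks at TGFB2, SMAD3, TGFBI and TGFBR2, by distance from the annotated gene start in kb (horizontal axis, in the direction of transcription), 1 row per list. Blue bars are siNEG peaks, red bars siFLI1 peaks and the black bar is the gene body. At TGFB2 the siFLI1 H3K27ac peaks reach the gene start and are wider. The H3K4me3 peaks reach the start in both arms and are wider in siFLI1. At TGFBR2 the H3K27ac rows differ in place more than in total length.

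TGFB1 (ENSG00000105329.11, chr19:41301587-41353922, minus strand) lies among other genes, and its window also held AXL, B9D2, BCKDHA, CCDC97, EXOSC5, HNRNPUL1, TMEM91 and ENSG00000255730. H3K27ac covered 32.2 and 32.2 kb in siNEG and 39.4 and 36.6 kb in siFLI1, a difference of 0.23 on the log2 scale (SE 0.08, limma adjusted p = 0.046). That is close to the median of all windows, and after centring the difference was -0.0097 (adjusted p = 0.96). Leaving out any 1 list also ended the call, with differences from 0.18 to 0.28 and adjusted p from 0.096 to 0.27. The call was also lost with the replicate number as a block (adjusted p = 0.061), with a pseudocount of 200 bp (adjusted p = 0.051) and without the filter on covered length (adjusted p = 0.053). With the 10 kb flank it was kept, and the difference was 0.47 (adjusted p = 0.014). The added length lay in the gene body, which held 10.96 and 10.03 kb in siNEG and 16.2 and 15.6 kb in siFLI1, whereas the upstream flank held 12.5 and 12.3 kb in siNEG and 13.6 and 11.9 kb in siFLI1. The intronic region chr19:41320805-41329449, named after its values were seen, widened from 4834 and 3815 bp to 7404 and 7792 bp.

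H3K4me3 in the TGFB1 window fell, from 24.3 and 27.8 kb to 22.4 and 22.3 kb, by 0.21 on the log2 scale (SE 0.07, limma adjusted p = 0.032). This lay at the 24th percentile of all windows, and the call was lost after centring (-0.12, adjusted p = 0.17), with the 10 kb flank (adjusted p = 0.066), with equal numbers of peaks (adjusted p = 0.067), with a stricter q threshold (adjusted p = 0.090) and without siNEG replicate 2 (-0.11, adjusted p = 0.31), siFLI1 replicate 1 (-0.21, adjusted p = 0.22) or siFLI1 replicate 2 (-0.21, adjusted p = 0.17). Of 22 merged H3K4me3 regions in the 8 windows, 0 were gained and 1 was lost, against 2.17% and 2.83% of all 20727 regions. The lost one, chr19:41355156-41355802, lay 1.34 kb upstream of TGFB1 at a TSS of TMEM91 and was short in siNEG, at 370 and 592 bp.

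Among the receptors, TGFBR2 (ENSG00000163513.19, chr3:30606601-30694142, plus strand), the type II receptor, had nearly the same total H3K27ac in both arms but not in the same places. Its window held 11.2 and 9.95 kb in siNEG and 9.92 and 10.1 kb in siFLI1. The arms overlapped, and the difference was -0.07 on the log2 scale (95% interval -0.38 to 0.23, limma adjusted p = 0.71). The gene body held 6.64 and 5.05 kb in siNEG and 8.22 and 7.96 kb in siFLI1, while the downstream flank held 3.67 and 4.90 kb in siNEG and 1.7 and 2.104 kb in siFLI1. With the flank shortened to 10 kb the difference was 0.39 (adjusted p = 0.14).

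In the downstream flank the change was at chr3:30731430-30735328, inside the neighbouring gene GADL1 and named after its values were seen, which was covered over 3665 and 3858 bp in siNEG and 1190 and 1807 bp in siFLI1. The ab4729 peaks overlapping this region measured 1266 bp in siNEG and 0 bp in siFLI1. Inside the gene, the intronic region chr3:30688011-30690275, also chosen after its values were seen, was covered over 535 and 0 bp in siNEG and 2262 and 2212 bp in siFLI1. At the canonical TSS, H3K27ac was in 1 list of each arm (331 and 0 bp in siNEG, 0 and 730 bp in siFLI1), so no direction can be read.

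Both H3K27ac regions lost at the 8 genes lay in TGFBR2. One of them, chr3:30691025-30691776, had its summit over a coding exon. It covered 752 and 398 bp in the siNEG lists with authors' folds of 7.99 and 5.32 and was absent from both siFLI1 lists. Of the ab4729 lists, that of siNEG alone overlapped it, with 417 bp of peaks counted whole. The call of this exonic region was not stable. When a peak within 1 kb counted as present, only 1 of the 2 remained, the other region, chr3:30666850-30667129. The exonic region then no longer counted as lost, because the siFLI1 peaks of chr3:30688011-30690275 lay within 1 kb of it. The 200 bp around the summit of the exonic region, chr3:30691322-30691521, are given as an example of a lost region, and they held none of the motifs counted over all regions, among which GGAA by itself was not searched.
TGFBR2 lost exonic region: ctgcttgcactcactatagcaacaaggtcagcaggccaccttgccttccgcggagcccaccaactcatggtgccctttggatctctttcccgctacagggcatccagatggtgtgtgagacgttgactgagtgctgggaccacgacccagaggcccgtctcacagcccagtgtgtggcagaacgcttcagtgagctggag

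TGFBR2 kept a broad H3K4me3 region over its start, chr3:30605427-30609498, in all 4 lists. The window held 3.47 and 3.06 kb in siNEG and 3.38 and 3.54 kb in siFLI1, a difference of 0.07 (95% interval -0.15 to 0.29, limma adjusted p = 0.67). The authors' folds were 32.9 and 33.3 in siNEG and 60.1 and 54.7 in siFLI1. These stood at percentiles 61.0 and 61.8 of their own lists in siNEG and 83.4 and 79.0 in siFLI1. No ETS1 peak lay in the TGFBR2 window in any list.

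TGFBR1 (ENSG00000106799.14, chr9:99104038-99154192, plus strand), the type I receptor, had the least H3K27ac of the 8 genes, also as a share of the window. It had 2.05 and 2.36 kb in siNEG and 1.46 and 1.22 kb in siFLI1, a difference of -0.46 on the log2 scale (SE 0.22) that was not called (limma adjusted p = 0.14). Relative to the median window the difference was -0.70 and was called (adjusted p = 0.029). Its window held only 2 H3K27ac regions, both in all 4 lists, which moved in opposite ways. The one at the start, chr9:99105062-99106004, was covered over 416 and 499 bp in siNEG and 912 and 794 bp in siFLI1, with authors' folds of 4.29 and 5.97 against 10.6 and 11.2. The one downstream of the gene, chr9:99159126-99161145 (chosen after its values were seen), was covered over 1637 and 1862 bp in siNEG and 549 and 424 bp in siFLI1. H3K4me3 at TGFBR1 covered 3.60 and 3.82 kb in siNEG and 2.94 and 3.15 kb in siFLI1 (-0.22, SE 0.10, limma adjusted p = 0.12).

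TGFBR3 (ENSG00000069702.11, chr1:91680343-91906335, minus strand), the co-receptor, had 13.5 and 14.7 kb of H3K27ac in siNEG and 19.0 and 20.2 kb in siFLI1. The arms did not overlap, and the difference was 0.45 on the log2 scale (SE 0.11, limma adjusted p = 0.011). The call was lost after centring (0.21, adjusted p = 0.25) and when any 1 list was left out, with differences from 0.39 to 0.51 and adjusted p from 0.050 to 0.11. Nearly all of this H3K27ac lay inside the gene. The 3 gained regions were intronic, 155 to 174 kb from the annotated gene start, beside an intronic region in all 4 lists, chr1:91735467-91738470, that was covered over 956 and 469 bp in siNEG and 2814 and 2728 bp in siFLI1 and was chosen after its values were seen. Its authors' folds were 3.89 and 3.97 in siNEG and 12.8 and 13.9 in siFLI1. The strongest of the gained regions, chr1:91731061-91732667, had folds of 7.13 and 7.33 and lay under no ab4729 peak. Its summit is shown at chr1:91732209-91732508 on the minus strand, with the AP-1 motif TGANTCA (N is any base) in capitals.
TGFBR3 gained intronic region: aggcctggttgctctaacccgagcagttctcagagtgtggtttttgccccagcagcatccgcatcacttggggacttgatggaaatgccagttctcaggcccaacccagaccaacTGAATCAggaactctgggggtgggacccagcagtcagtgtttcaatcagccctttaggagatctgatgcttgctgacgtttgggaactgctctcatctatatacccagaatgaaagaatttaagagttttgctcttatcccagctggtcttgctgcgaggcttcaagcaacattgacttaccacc

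H3K4me3 at TGFBR3 was 1 region in all 4 lists, chr1:91882688-91886989, over the canonical TSS at 91886151. It covered 3.59 and 3.92 kb in siNEG and 4.003 and 3.953 kb in siFLI1 (0.07, SE 0.10, limma adjusted p = 0.65).

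Among the signal transducers, SMAD3 (ENSG00000166949.17, chr15:67063763-67195173, plus strand) had the longest H3K27ac of the 8 genes in every list. As a share of the window it was also highest in the 4 replicated lists, but not in the ab4729 siNEG list, where it was 3.62% against 5.44% at TGFB1. Its window held 49.9 and 52.4 kb in siNEG and 81.2 and 76.6 kb in siFLI1, with means of 51.1 ± 1.78 kb and 78.9 ± 3.30 kb (SD, n = 2 each). The difference was 0.62 on the log2 scale (SE 0.06, limma adjusted p = 1.5e-04), a fold of 1.53 and percentile 82.2 of all windows. After centring it was 0.38 (adjusted p = 0.010). In siFLI1 replicate 1, 35.1% of the window was covered, against 21.6% in siNEG replicate 1.

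The 16 SMAD3 regions in all 4 lists held 47.4 and 49.9 kb in siNEG and 68.0 and 65.6 kb in siFLI1. Upstream of the gene, chr15:67047418-67051875 was covered over 1801 and 408 bp in siNEG and 4207 and 3675 bp in siFLI1, with authors' folds of 4.54 and 3.88 against 22.8 and 16.3. In the gene, chr15:67084410-67090037 was covered over 3936 and 4237 bp in siNEG and 5095 and 5169 bp in siFLI1, and its folds were 3.09 and 3.55 in siNEG and 9.55 and 14.8 in siFLI1. Both were chosen after their values were seen. Near the start, H3K27ac within 1 kb of the canonical TSS covered 390 and 0 bp in siNEG and 1884 and 1343 bp in siFLI1.

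SMAD3 also had 8 gained regions among its 56, with 5 of 28 at TGFB2, 4 of 21 at TGFBI, 3 of 25 at TGFBR3, 2 of 22 at SMAD7, 1 of 44 at TGFB1, 0 of 16 at TGFBR2 and 0 of 2 at TGFBR1, against 8.19% of all regions. With absence required within 1 kb, 4 were left at SMAD3 and 0 at TGFB1, and the other counts did not change. The stricter q threshold gave 4 at SMAD3, 4 at TGFB2 and 2 at TGFBR3. The 10 kb flank gave 0 at SMAD7, 4 at TGFB2 and 3 at TGFBI. Of the 8 SMAD3 regions, 7 lay in introns and 1 just downstream. Their authors' folds ran from 2.67 to 7.04. The first, chr15:67090184-67091687, adjoined the intronic region described above, with folds of 5.88 in siFLI1 replicate 1 and 2.89 in replicate 2. It is shown at chr15:67091231-67091530 as the widest gained region of SMAD3, with the AP-1 motif in capitals.
SMAD3 gained intronic region: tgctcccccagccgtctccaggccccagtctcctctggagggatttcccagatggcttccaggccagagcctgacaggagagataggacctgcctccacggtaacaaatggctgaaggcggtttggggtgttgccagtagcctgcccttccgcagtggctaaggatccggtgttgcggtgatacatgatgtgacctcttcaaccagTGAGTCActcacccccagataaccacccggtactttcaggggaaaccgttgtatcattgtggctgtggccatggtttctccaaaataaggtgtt

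H3K4me3 at SMAD3 covered 3.78 and 4.02 kb in siNEG and 4.06 and 4.93 kb in siFLI1. Both siFLI1 lists lay above both siNEG lists, but the difference was not called (0.16, SE 0.10, limma adjusted p = 0.26), and it was 0.28 without siFLI1 replicate 1 and 0.048 without siFLI1 replicate 2.

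SMAD7 (ENSG00000101665.10, chr18:48919853-48950965, minus strand), the inhibitory SMAD, was heavily marked in both arms. H3K27ac covered 25.3 and 26.5 kb in siNEG and 32.8 and 26.8 kb in siFLI1, so that siFLI1 replicate 2 lay next to the siNEG lists. The difference was 0.19 on the log2 scale (95% interval -0.04 to 0.42, limma adjusted p = 0.20), -0.05 after centring and 0.015 with the 10 kb flank, and it was 0.047 without siFLI1 replicate 1 and 0.33 without siFLI1 replicate 2. A single region, chr18:48921684-48937936, spanned 16253 bp of the gene and was covered over 15201 to 16105 bp in each of the 4 lists. Its authors' folds were 18.2 and 20.8 in siNEG and 22.0 and 18.5 in siFLI1. Both gained regions lay downstream. Of these, chr18:48902224-48902879, with folds of 8.73 and 8.04, also overlapped 502 bp of ab4729 peaks in siFLI1 and none in siNEG. H3K4me3 at SMAD7 covered 7.29 and 7.25 kb in siNEG and 8.22 and 7.25 kb in siFLI1 (0.08, SE 0.08, limma adjusted p = 0.53).

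TGFBI (ENSG00000120708.17, chr5:136028988-136063818, plus strand), the extracellular matrix target, was higher in both marks. H3K27ac covered 11.1 and 11.7 kb in siNEG and 24.3 and 26.7 kb in siFLI1, with means of 11.4 ± 0.393 kb and 25.5 ± 1.69 kb (SD, n = 2 each). The difference was 1.09 on the log2 scale (SE 0.11, limma adjusted p = 1.4e-04), a fold of 2.13 and percentile 95.3 of all windows. The gene body held 3.24 and 3.56 kb in siNEG and 11.2 and 11.3 kb in siFLI1. The upstream flank held 7.90 and 8.13 kb in siNEG and 13.2 and 15.2 kb in siFLI1.

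The strongest of 4 gained regions at TGFBI was intronic, chr5:136056972-136059411, 29.0 kb into the gene at an internal TSS of the annotation. It had authors' folds of 8.48 and 7.60, at percentiles 82.6 and 78.1 of the siFLI1 lists, and lay under 1113 bp of ab4729 peaks in siFLI1 and none in siNEG. A second, chr5:136053060-136054587, lay 24.6 kb into the gene with folds of 4.28 and 5.39. The gained region next to the gene start, chr5:136029385-136030100, was weaker, with folds of 3.44 and 3.90, and lay under no ab4729 peak. Its summit, chr5:136029581-136029880, is shown because it is the one gained region within 1 kb of an annotated gene start, and the capitals mark CAGACA, the SMAD element, which occurred 2 times.
TGFBI gained region next to the start: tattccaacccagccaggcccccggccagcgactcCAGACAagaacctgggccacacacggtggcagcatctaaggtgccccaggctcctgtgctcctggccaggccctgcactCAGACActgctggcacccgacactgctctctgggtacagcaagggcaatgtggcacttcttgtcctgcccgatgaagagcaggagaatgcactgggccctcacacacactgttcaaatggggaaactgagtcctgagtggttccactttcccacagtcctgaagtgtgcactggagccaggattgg

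H3K4me3 at TGFBI was a single region over the gene start, chr5:136028860-136031908, present in all 4 lists. It covered 388 and 645 bp in siNEG and 2634 and 3033 bp in siFLI1. The difference was 1.34 on the log2 scale (SE 0.13, limma adjusted p = 4.0e-06), percentile 99.8 of all windows, and ranged from 1.22 to 1.46 without 1 list. The siNEG lengths lie below the pseudocount of 1000 bp, and with a pseudocount of 200 bp the difference was 2.102. The authors' folds were 4.72 and 3.70 in siNEG, at percentiles 25 and 14.2 of their lists, and 16.965 and 17.045 in siFLI1, at percentiles 43.5 and 43.3. TGFBI was the gene with the least H3K4me3 in siNEG, while the other 7 held at least 3.06 kb in each siNEG list.

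**Figure D4:**
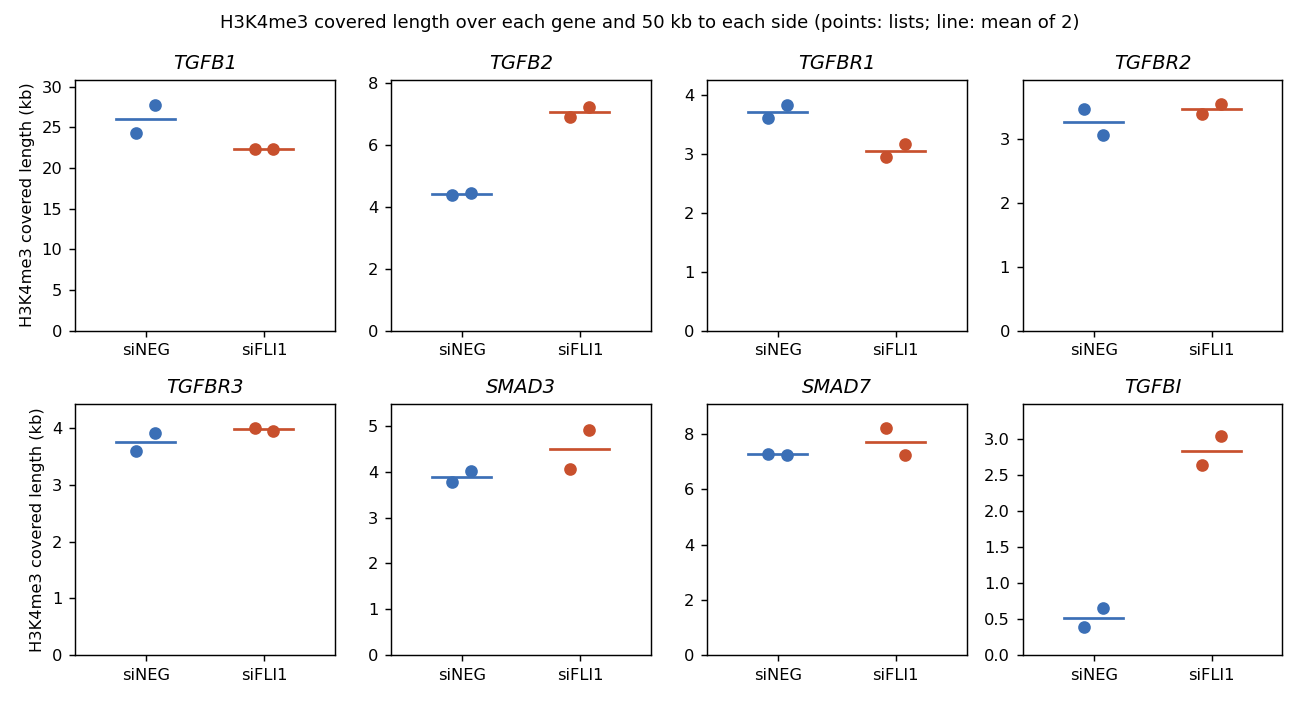
H3K4me3 covered length in kb (vertical axis) over each gene and 50 kb to each side, by arm (horizontal axis). Points are the 2 lists of an arm and the line is their mean. TGFBI goes from 0.388 and 0.645 kb to 2.63 and 3.03 kb and TGFB2 from 4.37 and 4.44 kb to 6.90 and 7.23 kb, while TGFBR2 and SMAD7 overlap between arms.

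Across the 8 genes, H3K4me3 lay within 1 kb of the canonical TSS in all 4 lists. Covered length was called higher at 2 genes and lower at 1, against 4.61% and 21.3% of all windows. After centring 2 were called higher and 0 lower, and without siFLI1 replicate 1 the counts were 1 and 0. In 4 genes both siFLI1 lists lay above both siNEG lists, as in 14.2% of all windows, and in 2 both lay below, as in 50.7%. The median difference was 0.07 for the 8 genes and -0.10 for all windows.

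The ab4729 libraries, 1 per arm and therefore without a test, also had more H3K27ac at TGFB2, SMAD3 and TGFBI in siFLI1. Over 13558 windows the median log2 difference between these 2 lists was 0.44, and the siFLI1 list was the longer, with 51663 peaks against 32738. At TGFB2 the covered length was 2.83 kb in siNEG and 24.2 kb in siFLI1, percentile 99.9 of windows. At SMAD3 it was 8.38 and 33.2 kb (percentile 98.5), and at TGFBI 6.10 and 17.03 kb (percentile 94). At TGFBR3 it was 2.22 and 6.46 kb (percentile 91.8) and at SMAD7 5.99 and 12.4 kb (percentile 83.2). TGFB1, at 8.29 and 13.1 kb, TGFBR2, at 2.42 and 3.68 kb, and TGFBR1, at 0.914 and 1.06 kb, stood at percentiles 63.4, 51.3 and 20.1. Of the 23 gained regions, 7 (30.4%) lay under ab4729 peaks in siFLI1 alone, 0 in siNEG alone, 1 in both and 15 in neither. Over all 7415 gained regions 31.6% lay under ab4729 peaks in siFLI1 alone.

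ETS1 peaks were few at these genes. The siNEG ETS1 lists held 302 and 208 peaks and the siFLI1 lists 1633 and 2635, and 44% of 2706 merged ETS1 regions were gained and 0.0739% lost. The peak names in the siFLI1 list labelled replicate 1 carry the number 2, so it is not certain that the 2 siFLI1 lists are separate samples, and an ETS1 call that needs both is not taken as replicated. The 8 windows held 5 ETS1 regions, of which 1 was gained, 2 were in all 4 lists and 2 were in siFLI1 replicate 2 alone. TGFB2, TGFBI and the 3 receptor genes had no ETS1 peak in any list.

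The gained ETS1 region lay upstream of SMAD7, chr18:48951858-48952230, with its summit 1.02 kb before the gene start. It had authors' folds of 8.76 and 11.8, at percentiles 85.2 and 91.4 of the siFLI1 lists. An H3K4me3 region in all 4 lists spanned this place. The ab4729 peaks overlapping the ETS1 region measured 309 bp in siNEG and 421 bp in siFLI1, each counted whole. When the lists were shortened to the number of peaks in the shortest, 0 gained regions were left at these genes. The 200 bp around the summit, chr18:48951889-48952088 on the minus strand, are shown as the only ETS1 site gained here, with GGAA, the core of ETS binding sites, in capitals at 3 places.
SMAD7 upstream ETS1 region: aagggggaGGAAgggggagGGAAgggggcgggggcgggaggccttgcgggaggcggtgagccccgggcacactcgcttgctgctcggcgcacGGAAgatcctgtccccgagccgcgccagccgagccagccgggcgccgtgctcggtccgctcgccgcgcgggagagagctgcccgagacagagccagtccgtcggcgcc

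The TGFB1 start carried ETS1 in all 4 lists, at chr19:41353680-41354231, a place it shares with TMEM91. The peaks covered 361 and 160 bp in siNEG and 548 and 507 bp in siFLI1, with authors' folds of 5.66 and 6.93 against 10.0 and 12.6. They stood at percentiles 13.9 and 32.7 of the short siNEG lists and 92.2 and 94.0 of the longer siFLI1 lists. Its summit fell in an exon of TGFB1, and the 30 bases there, chr19:41353731-41353760 on the minus strand, held no GGAA on either strand. This stretch is shorter than the 200 bp shown at SMAD7, so GGAA cannot be compared between these sites.
TGFB1 ETS1 summit: aggagtcgccgaggagcagcctgaggcccc
The other region in all 4 lists, chr19:41263902-41264721, lay at the promoter of HNRNPUL1, 89.6 kb from the TGFB1 start. It was the strongest of the 5, with folds of 11.7 and 11.9 in siNEG and 20.3 and 24.5 in siFLI1. The SMAD3 start held a short peak in siFLI1 replicate 2 alone, chr15:67065597-67065766, with a fold of 6.52.

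Short motifs were counted in 300 bp centred on each summit, on both strands, as a description of letters and not of binding. CAGACA occurred in 7 of the 23 gained H3K27ac regions (30.4%), against 20.9% of all H3K27ac regions and 22.99% of all gained ones, and in 54 of all 214 regions at the 8 genes (25.2%). GGAATG occurred in 5 (21.7%), against 16.0% of all regions, and TGANTCA in 3 (13.0%), against 9.47%. CCGGAA, a longer ETS core, occurred in 0 of the 23, against 4.73% of all regions, and the SMAD palindrome GTCTAGAC in 0, against 0.22%. Runs of at least 4 GGAA units, the repeats that EWSR1::FLI1 is known to bind, occurred in 0 of the 214 H3K27ac regions at these genes and in 0.0784% of all regions. Of the 5 ETS1 regions, 1 held CCGGAA, the one at HNRNPUL1, against 24.5% of all ETS1 regions. In the RefSeq promoter windows (GRCh38.p14, from 250 bases before a start to 50 after it) 22 windows matched the 8 genes. CCGGAA was found in 2 of these, at TGFBR1 and SMAD7, against 17.2% of 35116 windows. TGANTCA was found in 2, at TGFBR2 and SMAD3, against 7.71%. CAGACA was found in 4, at TGFB2, SMAD3 and 2 windows of TGFBR1, against 16.9%, and GGAATG in 2, at TGFB2 and TGFBR1, against 14.03%.

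Beyond the 8 genes, 54 further genes of the TGF-beta, activin and BMP pathways were counted. Their values are totals of whole windows, neighbouring genes included, and single genes of this list were not followed through the alternative settings. In H3K27ac, 17 of the 48 tested were called higher and 1 lower, against 25.1% and 6.15% of all windows, and the list's median was 0.31 against 0.22. In H3K4me3, 7 of the 50 tested were called higher and 5 lower, against 4.61% and 21.3%, with a median of -0.05 against -0.10. These counts are a description, since BMP4 and ACVRL1 in H3K27ac and IGFBP3 and THBS1 in H3K4me3 reached the mean covered length of 500 bp needed for the test only through siFLI1 and so had to differ.

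Among ligands and latency proteins, 2 of 8 were called higher in H3K27ac, a share near the 25.1% of all windows. LTBP2, a latent TGF-beta binding protein, rose (1.11). The other was BMP4, a ligand of the BMP branch, whose call says nothing further because its window was listed at 0 in both siNEG lists and held 1.16 and 0.897 kb in siFLI1. In H3K4me3 the latency protein LTBP1 (0.68) and the third TGF-beta ligand, TGFB3 (0.35), rose and LTBP3 fell by 0.21 on the log2 scale. Among receptors, ACVRL1 held 653 and 281 bp of H3K27ac in siNEG and 1783 and 3446 bp in siFLI1. ACVR1 (0.76) and the endothelial co-receptor ENG (0.59) rose in H3K27ac and BMPR1A, a BMP type I receptor, fell by 0.40. ENG fell by 0.29 in H3K4me3, so its marks went in opposite directions, as did the medians of all windows (0.22 and -0.10).

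Among the other SMADs, 1 of 6 was called higher in H3K27ac, against 25.1% of all windows, and 0 of 6 were called in H3K4me3, where 4.61% of all windows were called higher and 21.3% lower. SMAD6, an inhibitory SMAD of the BMP branch, had 46.4 and 47.5 kb of H3K27ac in siNEG and 65.0 and 64.5 kb in siFLI1 (0.46, limma adjusted p = 6.1e-04). The window of SMAD4, the shared partner, was not called in either mark. Among inhibitors and regulators, LEFTY2 (1.92), the ubiquitin ligase SMURF2 (1.08) and FKBP1A (0.65), which binds type I receptors, rose in H3K27ac. In H3K4me3 the pseudoreceptor BAMBI rose (0.28) and FKBP1A fell by 0.29.

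Of the target genes, the largest class tested, 8 of 15 were called higher in H3K27ac and 0 lower, against 25.1% and 6.15% of all windows. FN1, the fibronectin gene, had 18.8 and 25.2 kb in siNEG and 49.2 and 53.1 kb in siFLI1 (1.19, limma adjusted p = 1.4e-04). THBS1 (0.98), COL1A1 (0.90), COL1A2 (0.78), CCN2 (0.61), ID1 (0.59), ITGAV (0.57) and TAGLN (0.53) also rose. In H3K4me3, IGFBP3 and THBS1 were listed at 0 in both siNEG lists and held 3.98 and 4.04 kb, and 3.80 and 2.88 kb, in siFLI1. SNAI2 (0.81) and ACTA2 (0.52) rose, and JUNB and ID3 fell by 0.26 and 0.25 on the log2 scale.

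At canonical TSSs, H3K4me3 was gained at 6 of the 54 genes, IGFBP3, ACTA2, LRRC32, TAGLN, THBS1 and GDF15, against 0.933% of all canonical TSSs. H3K27ac was gained at 4, LEFTY2, ACVR1, TAGLN and COL1A1, against 1.72% of all canonical TSSs.

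**Figure D5:**
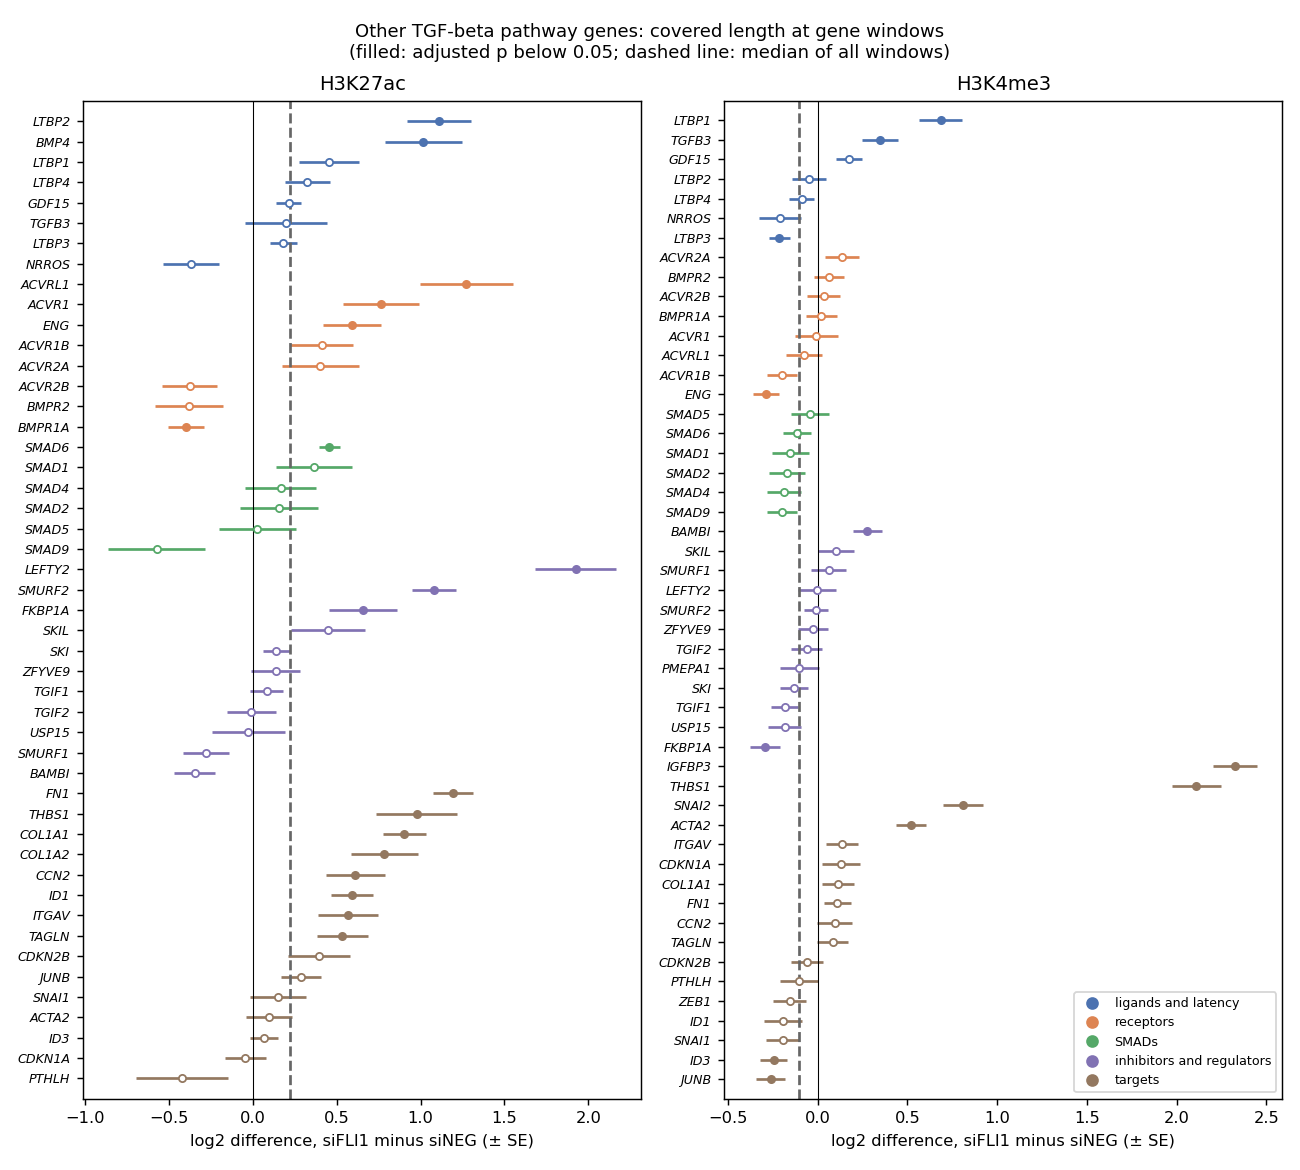
Difference in log2(covered length + 1000 bp), siFLI1 minus siNEG, with SE bars, for the other TGF-beta pathway genes tested in H3K27ac (left) and H3K4me3 (right), coloured by role. Filled points have an adjusted p below 0.05 and the dashed line is the median of all windows. Targets such as FN1 lie to the right in H3K27ac, and IGFBP3 and THBS1, both listed at 0 in siNEG, stand furthest to the right in H3K4me3.

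Likeness of profile was measured as the Euclidean distance of log2(covered length + 1000 bp) over the 14 lists to every protein-coding gene on another chromosome. TGFBR1 was nearest to PLK4 (0.325), SMAD7 to B4GALT1 (0.429), TGFBR2 to TBC1D7 (0.444), TGFBR3 to ARHGAP26 (0.542) and TGFB1 to PIP5K1A (0.815). TGFBI had its nearest gene, SORBS2, at 1.05, TGFB2 had FANCC at 1.06 and SMAD3 had IQCJ-SCHIP1 at 1.09. The nearest profile to TGFB2, that of FANCC, had 26913 and 23075 bp of H3K27ac in siNEG and 44192 and 43419 bp in siFLI1.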

How the data were processed

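Peaks were called by the authors for each library separately. The submitters' processing notes name cutadapt 4.4, BWA 0.7.17, Picard 2.17.11 and MACS2 2.1.1, and the builds GRCh38, hg38 and dm6, with no role. The control library and the settings are not given in the sources used here, and the 8 input libraries were not analysed here. The deposited fold column is the authors' ratio of a peak over background, and the deposited -log10 columns are the authors' p-value and q-value. Both serve here as a description of single peaks, as a rank inside 1 list, or as a filter. The deposited summit offset gave each summit. No deposited peak passed the end of an hg38 chromosome, and coordinates count from 1 on hg38 with GENCODE release 44.

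From these files, covered length per window was computed with Python 3.11.15 and tested with limma 3.58.1 (R 4.3.3, empirical Bayes with trend, pseudocount 1000 bp, mean covered length of at least 500 bp). The fit was also run on simulated windows that lacked a shift common to all windows, so that run did not test the effect of such a shift. Peaks of the 4 lists of an antibody that shared at least 1 bp were merged into regions, counted whole. Motifs were searched on both strands of hg38, and promoter windows came from RefSeq. The ab4729 pair was not merged with the other lists, and ab4729 lengths given for a region are those of whole peaks overlapping it. All 8 genes are described, with other pathway genes where called, regions over a gene's TSS and those gained or lost, and the nearest profile per gene. Other regions were picked after their values were seen, as stated beside them. The genes and lists were chosen with earlier results of these data known. Alternatives covered the pseudocount, filter, window, number of peaks, q threshold, overlap, centring, replicate block and each list left out. 1 further pathway gene and 1 sequence are not reported here.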

Additional observations from a re-analysis of the deposited data

How the results depend on the processing

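Read depth is unknown, covered length moves with how much was called, and 2 lists per arm limit every test. With a 10 kb flank, 2041 windows were called higher and 574 lower in H3K27ac and 1568 lower in H3K4me3. After centring on the median window, 1978 were higher and 2131 lower in H3K27ac and 1260 higher and 1436 lower in H3K4me3. Leaving out 1 list gave 540 to 3595 higher and 287 to 632 lower in H3K27ac, and 142 to 541 higher and 115 to 2702 lower in H3K4me3, with the lowest counts without siFLI1 replicate 1. A fit with the replicate number as a block called 4285 higher and 1034 lower in H3K27ac and 931 and 4473 in H3K4me3. Same-numbered lists did not deviate together (r = 0.0054 and 0.0029 across windows, which are not independent). With 2 lists per arm this cannot show whether lists were prepared in pairs, and the labels do not say.

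At the 8 genes, leaving out 1 list gave 27 to 70 gained and 5 to 26 lost H3K27ac regions, 0 to 2 gained and 1 to 3 lost H3K4me3 regions and 1 to 3 gained ETS1 regions, since fewer lists then have to agree. With absence required within 1 kb, 1 H3K27ac region and 0 H3K4me3 regions were lost. The lost H3K4me3 count was also 0 with equal numbers of peaks and with a stricter q threshold, and the gained ETS1 count was 0 with equal numbers. The ETS1 alternatives were chosen after seeing the data. Directions turned only in differences near 0 or for H3K27ac after centring. H3K27ac at TGFBR2 was 0.386 with the 10 kb flank, 0.029 with the stricter threshold and ran from -0.1547 to 0.0056 with 1 list left out. Centring gave -0.052 at SMAD7 and -0.0097 at TGFB1. H3K4me3 at TGFBR2 was -0.0078 with the stricter threshold and ran from -0.002 to 0.1354 with 1 list left out, and at SMAD7 it ran from -0.0025 to 0.157. The causes were not tested.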
